A study of Zea mays with 9 samples.

Results

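A set of 86 maize genes was described that were higher in nitrate-fed root apices than in nitrogen-starved ones and that lay below the starved level when nitrate was given together with cPTIO, a compound that scavenges nitric oxide (NO). The genes were chosen by their expression values. Of 45260 genes in all, 21683 had a Zm00001d identifier and an RPKM (a read count scaled to library size and divided by transcript length in kilobases) of at least 0.5 in -N, and 86 of them, 0.397%, had a ratio of +NO3- to -N above 2 and a ratio of +NO3- + cPTIO to -N below 0.5. The rule also left out 3 genes by name, and 0 of those met the other limits. Seedlings of the inbred line B73 germinated for 3 days, spent 24 h in a solution without nitrogen and were then moved for 24 h to -N, to +NO3- (1 mM nitrate) or to +NO3- + cPTIO (1 mM nitrate with 1 mM cPTIO). RNA of root apices pooled over seedlings was sequenced, with 3 libraries per condition in the labels, of which 2 were kept for +NO3- + cPTIO according to the methods. The -N and +NO3- libraries had already served an earlier analysis. The design holds no seedlings given cPTIO without nitrate, so an effect of cPTIO on the nitrate response and an effect of cPTIO by itself cannot be told apart.

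Nitrate is both a nutrient and a signal for roots. In maize root tips, nitrate reductase can supply NO soon after nitrate arrives, and the transition zone behind the meristem is a known site of this NO production. NO then takes part in root growth and in lateral root formation together with auxin and strigolactones. cPTIO reacts with NO and is widely used to remove it from living tissue.

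Each condition has a single deposited value per gene, so every ratio here is without a replicate check and no difference was tested. The rule fixes the direction of both ratios, and their sizes are given as a description. The apices hold several tissues, and in such bulk RNA fewer cells of a type and less RNA per cell cannot be told apart.

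The 86 genes were mostly weakly expressed. Their median RPKM was 1.67 in -N (quartiles 0.812 and 2.65), 4.36 in +NO3- (2.29 and 8.39) and 0.570 in +NO3- + cPTIO (0.268 and 0.915). Over all 21683 genes with the -N minimum, the medians were 10.66, 11.09 and 10.95, so the set sat low in the range of root apex expression in all 3 conditions. In -N, 29 of the genes had an RPKM under 1 and 8 had 10 or more. In +NO3-, 51 stayed under an RPKM of 5 and 17 reached 10. In +NO3- + cPTIO, 39 were under 0.5, 4 of them listed at 0.

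Most of the nitrate ratios were close to the limit that chose the genes. The median ratio of +NO3- to -N was 2.44, a log2 ratio of 1.29, and the ratios ran from 2.01 to 11.998. In 46 genes the ratio was under 2.5, in 36 it was between 2.5 and 4, and in 4 it was larger. The decrease below -N was deeper for some of them. Over the 82 genes above 0, the median log2 ratio of +NO3- + cPTIO to -N was -1.49, with a range of -4.98 to -1.02, and 65 of the 86 genes were 2- to 4-fold below -N. Another 17 were more than 4-fold below -N without reaching 0. Between the conditions with and without cPTIO, the median log2 ratio over the 82 genes was -2.91, with a range of -6.08 to -2.06. The rule requires this distance to exceed 4-fold, which 3.48% of all 21683 genes did, and in 19 of the 82 it was over 10-fold.

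The share of genes past each limit gives the background of these counts. Of the 21683 genes, 3.36% were above 2-fold in +NO3- and 10.5% were below 0.5 times -N in +NO3- + cPTIO. Of the 728 genes above 2-fold in +NO3-, 86 met the second limit, which is 11.8%, and of the 20955 other genes 2182 met it, which is 10.4%. Over genes of all lengths, the share among nitrate-induced genes was thus near the background, and nothing is read from the size of the set. Within each group of similar locus length, described further on, the share was lower in nitrate-induced genes than over all genes. From 500 to below 1000 bases, for example, it was 9.74% against 24.7%. The opposite profile, below 0.5 times -N with nitrate and above 2-fold with cPTIO, was shown by 50 genes, where these limits were passed by 2.9% and 5.98% of all genes.

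**Figure D1:**
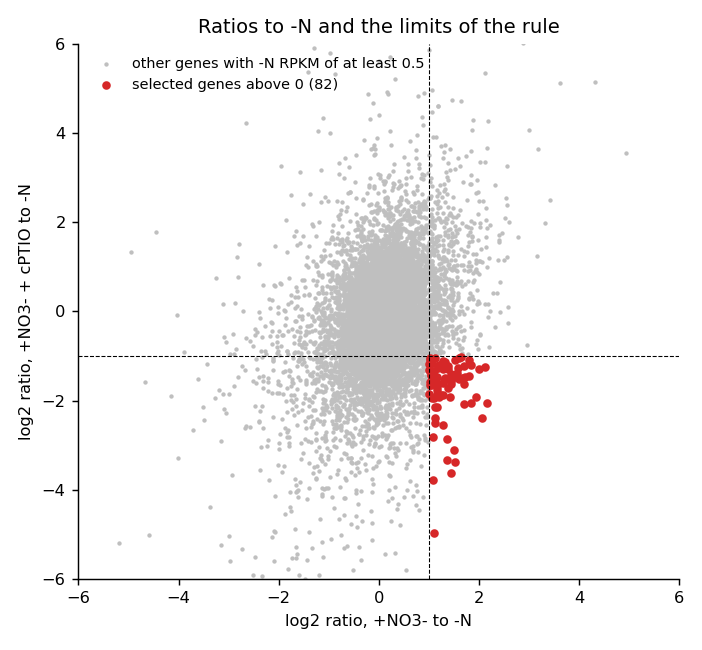
Each point is a gene with a -N RPKM of at least 0.5, placed by its log2 ratio of +NO3- to -N (x axis) and of +NO3- + cPTIO to -N (y axis); dashed lines mark the limits of the rule, and points beyond 6 on either axis are not drawn. The 82 selected genes above 0 (red) crowd the corner where the limits meet, with few below a log2 ratio of -3 on the y axis.

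The genes around the limits show how fine the choice is. Just inside the nitrate limit were Zm00001d020584, Zm00001d027136 and Zm00001d025080, all with a ratio of 2.01, and just outside were Zm00001d051748 at 1.999, Zm00001d011468 at 1.996 and Zm00001d017840 at 1.98. At the cPTIO limit the 3 genes just inside were Zm00001d018915 (0.493 times -N), Zm00001d043399 (0.485) and Zm00001d023565 (0.484). The 3 just outside were Zm00001d013553 (0.510), Zm00001d009081 (0.511) and Zm00001d038372 (0.516). At the -N minimum, Zm00001d048615 had an RPKM of 0.519, and Zm00001d023565 and Zm00001d026061 had 0.529. On the other side stood Zm00001d029630 (0.493), Zm00001d029388 (0.488) and Zm00001d002900 (0.486). The values on either side of each limit differ by a few percent. The deposited values hold no replicates to say which of these genes would keep its side. The study's own pairwise tests over replicates were not used for these limits.

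A few genes carried much of the expression of the set. The summed RPKM of the 86 genes was 335 in -N, 816 in +NO3- and 108 in +NO3- + cPTIO, and the 10 genes highest in +NO3- held 56.1% of the sum in +NO3-. Coordinates below are those of the AGPv4 assembly. None of the 10 has a name or function in the sources used here, so they are described by identifier and position. The highest was Zm00001d020584, on chromosome 7 from 123703834 to 123704145, at 46.2 RPKM in -N, 92.6 in +NO3- and 20.3 in +NO3- + cPTIO. Zm00001d021772, on chromosome 7 from 162763364 to 162763570, had 32.6, 67.1 and 10.4. Zm00001d002500, on chromosome 2 from 14128413 to 14128673, had 25.4, 58.1 and 10.9. In these 3 genes the RPKM in +NO3- was 2.01, 2.06 and 2.29 times that in -N, and with cPTIO it was 4.55-, 6.43- and 5.31-fold below the nitrate level.

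Zm00001d039842 (chromosome 3, 16468276 to 16468803) stood at 19.7 RPKM in -N, 41.3 in +NO3- and 7.06 in +NO3- + cPTIO. Zm00001d011080 (chromosome 8, 138416663 to 138416884) had 12.6, 40.9 and 5.41. Zm00001d040210 (chromosome 3, 32101450 to 32101662) had 19.0, 39.9 and 2.70. With near equal levels in +NO3-, they were 5.85-, 7.56- and 14.8-fold lower with cPTIO. Zm00001d001074 had 15.0, 39.4 and 4.55, and its locus on chromosome 7, from 2862308 to 2863146, is shared with other genes as described further on.

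Zm00001d027291 (chromosome 1, 1942161 to 1942595) reached 14.8 RPKM in -N, 31.9 in +NO3- and 0.471 in +NO3- + cPTIO, which is 67.8-fold below the nitrate level and 31.5-fold below -N. Zm00001d048307 (chromosome 9, 154291034 to 154291288) had 9.36, 26.7 and 1.09, and was 24.4-fold lower with cPTIO than with nitrate alone. Zm00001d022624 (chromosome 7, 181409443 to 181409778) had 5.36, 20.5 and 1.41, a 14.5-fold distance. Of the 10 genes, 8 have a locus of their own that spans under 500 bases, a feature of the whole set that is described after the levels.

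**Figure D2:**
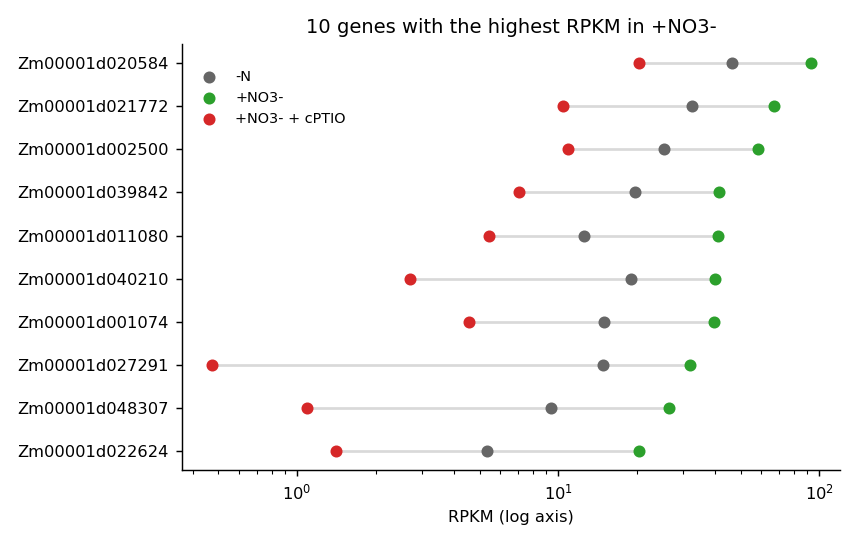
RPKM (x axis, log scale) of the 10 selected genes with the highest RPKM in +NO3-, with 1 deposited value per gene for -N (grey), +NO3- (green) and +NO3- + cPTIO (red). In every gene red lies to the left of grey and green to the right, as the rule requires, and the red point of Zm00001d027291 at 0.471 is far to the left of the others.

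Among the 35 genes that reached 5 RPKM in +NO3-, the lowest ratios of +NO3- + cPTIO to +NO3- above 0 belonged to Zm00001d027291, Zm00001d048307 and 3 less expressed genes. Zm00001d038056, on chromosome 6 with a span of 1132 bases, had an RPKM of 3.67 in -N, 7.81 in +NO3- and 0.266 in +NO3- + cPTIO, 29.4-fold below nitrate. Zm00001d012165, on chromosome 8 with a span of 486 bases, had 2.52, 6.45 and 0.250, a 25.8-fold distance. Zm00001d007341, on chromosome 2 with a span of 1014 bases, had 2.57, 9.18 and 0.620, a 14.8-fold distance. All of these levels with cPTIO except that of Zm00001d048307 were under an RPKM of 1.

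The 4 genes listed at 0 in +NO3- + cPTIO have no finite ratio there. Zm00001d042963, on chromosome 3 from 185049264 to 185049428, stood at 0.922 RPKM in -N and 11.1 in +NO3-, and its ratio of 11.998 is the highest of the set. Zm00001d021601, on chromosome 7, had 1.54 and 4.81. Zm00001d012414, on chromosome 8, had 0.641 and 1.62, and Zm00001d004250, on chromosome 2, had 0.580 and 1.59. These genes have the short spans of 165, 309, 225 and 204 bases, and an entry of 0 in a table without counts does not show that no read was seen.

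In -N and +NO3-, the medians of the 86 genes were near those of the other nitrate-induced genes. The 642 other genes above 2-fold in +NO3- had a median RPKM of 1.63 in -N and 4.74 in +NO3-. Their median log2 ratio of 1.29 was the same, and both groups were cut at the same 2-fold limit. In +NO3- + cPTIO the median of the 642 was 3.15, a median log2 ratio to -N of 0.69, so as a group they stayed above the starved level. The rule put the 86 below 0.5 times -N and left the 642 at or above it, so this contrast was fixed by the choice. The 2182 other genes below 0.5 times -N with cPTIO were more highly expressed in -N, with a median RPKM of 4.38, and had medians of 3.61 in +NO3- and 1.19 in +NO3- + cPTIO. Their median log2 ratio of +NO3- + cPTIO to -N was -1.49, equal to that of the 86, and both groups were cut at the same limit of 0.5 times -N.

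The overlap with the published selection was partial. The 835 genes selected as nitrate-responsive from these -N and +NO3- libraries include 27 of the 86, or 31.4%. They include 351 of the 642 other nitrate-induced genes, or 54.7%, and 697 of all 21683 genes with the -N minimum, or 3.21%. All 27 are in cluster 4 of that list, the nitrate-raised genes classed as NO-dependent. All 86 are above 2-fold here, and the other 59 were not called nitrate-responsive by that selection. It used replicate libraries and required a change above 2-fold together with a limit on the false discovery rate. For the 27, the nitrate difference was therefore tested by the study, though not here. The study's test values for the 59 were not used here. The list of 835 was chosen on these same libraries and is no independent evidence of direction. The 27 listed genes had median RPKM of 2.57, 8.07 and 0.829 in -N, +NO3- and +NO3- + cPTIO, and the 59 unlisted genes had 1.18, 3.07 and 0.321. Of the 10 genes highest in +NO3-, 7 were listed, all but Zm00001d021772, Zm00001d040210 and Zm00001d001074, and none of the 4 genes listed at 0 was among the 27.

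**Figure D3:**
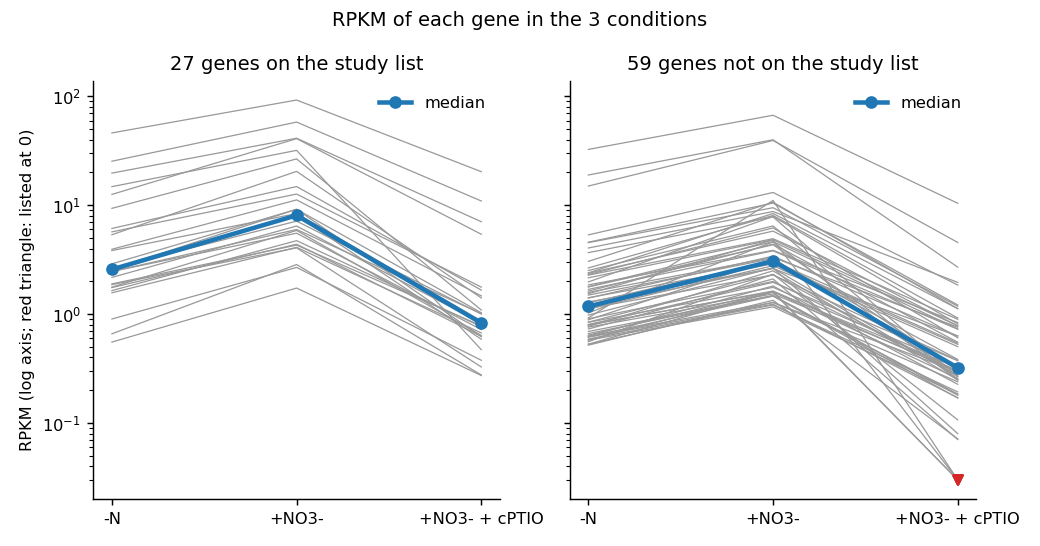
RPKM (y axis, log scale) of each selected gene in -N, +NO3- and +NO3- + cPTIO, with 1 line per gene and the median in blue, split into the 27 genes among the 835 nitrate-responsive genes (left) and the 59 others (right). The left group lies higher, with a median of 8.07 in +NO3- against 3.07, and the 4 genes listed at 0 (red triangles) are all on the right.

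One source used here gives functions, a KEGG pathway list whose 181 genes all belong to the 835. The 59 unlisted genes could therefore not appear in it, and 1 of the 27 listed genes does. Zm00001d042178, on chromosome 3 from 155178699 to 155179705, is assigned to Psb28, a photosystem II protein known to act in the assembly of the complex in plants and cyanobacteria. Its RPKM was 2.46 in -N, 5.54 in +NO3- and 0.720 in +NO3- + cPTIO, a ratio of 2.25 with nitrate and 0.292 with cPTIO. The photosynthesis list holds 4 genes, of which 3 passed the -N minimum and Zm00001d042178 is the member. Zm00001d034345, assigned to ferredoxin-NADP+ reductase, which in roots passes electrons to ferredoxin, had 52.3, 110 and 101. Zm00001d038291, assigned to ferredoxin, the electron donor of nitrite reductase, had 10.1, 37.2 and 16.0. Neither of these genes was below its -N level with cPTIO.

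The few genes listed under nitrogen metabolism had another profile than the 86. Of these 4 genes, 3 passed the -N minimum, and all 3 were above 2-fold of -N both in +NO3- and in +NO3- + cPTIO, so 0 are in the set. With cPTIO the share over all genes is 5.98%, but these genes were listed because they respond to nitrate. The other nitrate-induced genes also stayed above -N with cPTIO as a group, with a median log2 ratio of 0.69. Zm00001d018161, assigned to nitrite reductase, which turns nitrite into ammonium, had an RPKM of 0.820 in -N, 16.3 in +NO3- and 29.3 in +NO3- + cPTIO. Zm00001d018206, assigned to nitrate reductase, had 1.44, 4.06 and 4.66. Zm00001d044096, assigned to carbonic anhydrase, had 3.78, 9.91 and 13.4. The second nitrate reductase gene, Zm00001d049995, was under the -N minimum with 0.291, 1.77 and 2.23. Nitrate reductase is itself a source of NO in roots, and neither of its listed genes lay below -N with the scavenger.

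Hormone signalling genes were also outside the set, though some came near it. Of 13 genes listed under plant hormone signal transduction, 10 passed the -N minimum, 7 were above 2-fold and 3 below 0.5 times -N in +NO3- (over all genes 3.36% and 2.9%), and 0 are members. In +NO3- + cPTIO, 3 of the 10 were below 0.5 times -N and 3 above 2-fold (over all genes 10.5% and 5.98%). Zm00001d010697, assigned to the GH3 family that conjugates auxin to amino acids, had an RPKM of 0.480 in -N, 1.46 in +NO3- and 0.113 in +NO3- + cPTIO and missed the rule by the -N minimum alone. Zm00001d009309, assigned to TCH4, a xyloglucan endotransglucosylase of the cell wall, had 5.75, 12.8 and 3.03, which is 0.527 times -N and outside the cPTIO limit. Zm00001d045203, assigned to the Aux/IAA repressors of auxin signalling, had 2.40, 5.63 and 2.05, near its -N level. The genes of these lists were themselves chosen on the same libraries.

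The 86 genes were short, a feature the rule did not use. It was measured as the span of the locus, the distance from the first to the last base of the gene on the chromosome. For 81 of the genes the file gives a locus of their own. Their median span was 591 bases, with quartiles of 336 and 1230 and a range of 165 to 3699. The 588 other nitrate-induced genes with an own locus had a median of 1290 bases, the 2032 other genes below 0.5 times -N with cPTIO had 1867, and all 19465 genes with the -N minimum had 3679. Of the 81 genes, 37 spanned under 500 bases, which is 45.7%, against 13.4%, 10.2% and 2.97% in the same 3 groups. Under 300 bases were 17 of the 81, or 21.0%, against 3.91%, 3.54% and 0.956%.

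**Figure D4:**
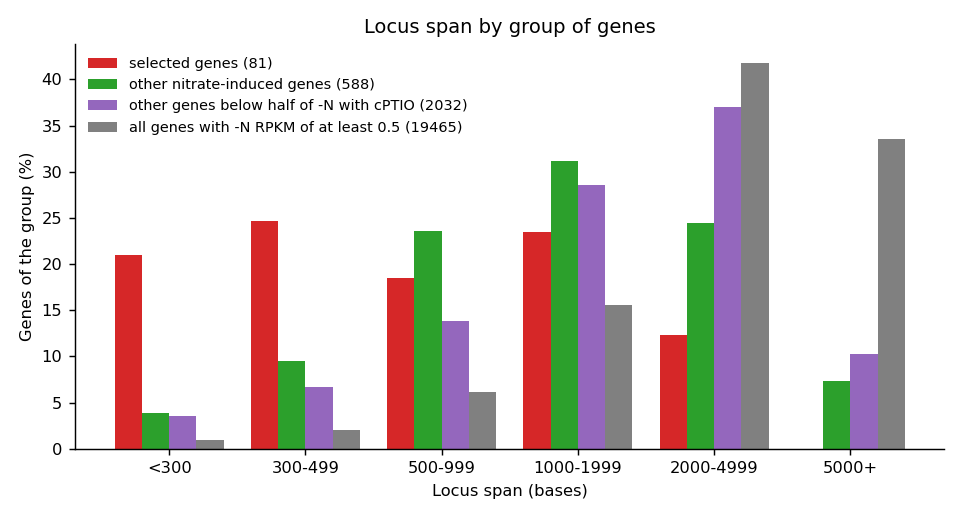
Percent of the genes of each group (y axis) by the span of the gene's locus in bases (x axis), for the selected genes (red), other nitrate-induced genes (green), other genes below 0.5 times -N with cPTIO (purple) and all genes with a -N RPKM of at least 0.5 (grey), own loci only. The selected genes have 45.7% of their members under 500 bases and 0 at 5000 bases or more, where the grey bar is among the highest.

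The spans were also often a whole number of codons. A gene annotated as a single coding exon without untranslated regions has a span that is a multiple of 3, and by arithmetic 33.3% of random lengths are. The way starts are counted was itself settled by the share of such spans in short genes. A comparison with 33.3% is therefore not independent of that choice, and the groups are compared with each other. Of the 81 genes, 66 had such a span, which is 81.5%, against 56.0% of the other nitrate-induced genes, 49.9% of the other genes below 0.5 times -N with cPTIO and 40.9% of all genes. These groups are longer. Under 500 bases, 32 of the 37 selected genes had such a span, or 86.5%. Over all 4758 Zm00001d genes with an own locus under 500 bases, at any expression level, the share was 57.0%. Only 578 genes of this length passed the -N minimum, and their share, the closer comparison, was not computed. The spans of 435 bases for Zm00001d027291, 255 for Zm00001d048307 and 165 for Zm00001d042963 are examples. The gene models themselves were not used here, so exons and coding frames were not read.

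With short spans and low RPKM, the genes rest on fewer reads than most genes. RPKM times the span in kilobases gives a ceiling on the RPM of a gene, its reads scaled to library size but not to length, since introns and short-length corrections can only lower it. Its median over the 81 genes was 1.12 RPM in -N, 2.86 in +NO3- and 0.335 in +NO3- + cPTIO. The other nitrate-induced genes had 2.40, 6.32 and 4.42, and all genes had 43.2, 44.2 and 43.0. In -N, 39 of the 81 genes were under a ceiling of 1, and the range was 0.118 to 14.4. The 37 genes under 500 bases had medians of 0.586, 1.69 and 0.193, and the 44 longer ones 1.86, 4.54 and 0.632. The part of this low depth in the choice of the genes was not tested.

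Short genes differed between conditions across the whole table, in the directions of the rule. Over genes with an own locus and a mean RPKM of at least 1, those under 300 bases had a median log2 ratio of 0.57 for +NO3- to -N and of -0.61 for +NO3- + cPTIO to -N, over 152 genes above 0. Those from 300 to below 500 bases had 0.54 and -0.60, those below 1000 bases 0.37 and -0.28, and those below 2000 bases 0.13 and -0.22. From 2000 to below 5000 bases the medians were 0.04 and -0.08, and from 5000 bases on they were -0.01 and 0.08. With a mean RPKM of at least 5, genes under 300 bases still had 0.57 and -0.72, and those from 300 to below 500 bases 0.47 and -0.73. Above 2-fold in +NO3- were 30.7% of the genes under 300 bases and 0.756% of those of 5000 bases or more. The other directions were also more frequent in the short genes, since 17.5% of those under 300 bases were above 2-fold of -N with cPTIO, against 3.86% of the longest. Among nitrate-induced genes with the -N minimum, 17 of 40 under 300 bases were in the set (42.5%), 20 of 76 from 300 to below 500 bases (26.3%), and 0 of 43 of 5000 bases or more. Over all genes of the same spans with the -N minimum, 47.8%, 39.8% and 3.21% were below 0.5 times -N with cPTIO. Short nitrate-induced genes thus passed this limit no more often than short genes in general.

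**Figure D5:**
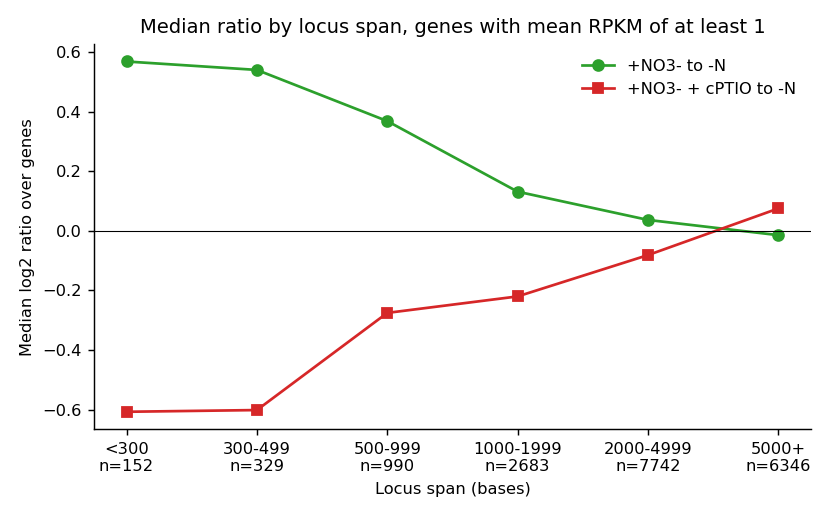
Median log2 ratio (y axis) of +NO3- to -N (green) and of +NO3- + cPTIO to -N (red) over genes grouped by locus span in bases (x axis), for genes with an own locus, a mean RPKM of at least 1 and values above 0; n is the number of genes. The green line goes from 0.57 in the shortest genes to -0.01 in the longest, and the red line from -0.61 to 0.08.

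When both ratios of a gene were taken relative to the median of genes of the same span, a step chosen after seeing the data, 26 of the 81 genes still met the limits. The 26 had a median span of 1247 bases with 6 under 500, and the 55 others had a median of 489 with 31 under 500. Of the 10 genes highest in +NO3-, 9 have a locus of their own and entered this step, and Zm00001d022624 was the 1 that remained. The pair Zm00001d036069 and Zm00001d036072, with spans of 2408 and 2316 bases, remained, as did Zm00001d042178, the Psb28 gene. Zm00001d044541, on chromosome 3 with a span of 1281 bases, remained with an RPKM of 6.12 in -N, 14.9 in +NO3- and 1.66 in +NO3- + cPTIO. Zm00001d014852, on chromosome 5 with a span of 2446 bases, had 2.495, 8.07 and 0.588, and Zm00001d039533, on chromosome 3 with the longest span of 3699 bases, had 1.87, 4.06 and 0.327. Of the 26 listed genes with an own locus 14 remained, and of the 55 unlisted ones 12. The part of the span in the ratios of the other genes was not tested.

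The genes were scattered over all 10 chromosomes. Chromosome 8 held 15 of the 86, which is 17.4%, against 9.09% of all genes with the -N minimum and 9.50% of the other nitrate-induced genes, and 9 of the 15 were under 500 bases. Chromosome 5 held 5, which is 5.81%, against 12.1% of all. Within 100 kb of another selected gene were 2, Zm00001d012714 and Zm00001d012720 on chromosome 8, 72.4 kb apart. Zm00001d012714 had an RPKM of 1.97 in -N, 7.89 in +NO3- and 0.812 in +NO3- + cPTIO, and Zm00001d012720 had 0.625, 1.81 and 0.227. Of the genes next to them, Zm00001d012713, Zm00001d012715 and Zm00001d012721 had an RPKM of 0.031 or less in all 3 conditions, too low to show a profile. Zm00001d012719, beside Zm00001d012720, had 13.1, 16.8 and 4.08. That is below 0.5 times -N with cPTIO, but not above 2-fold with nitrate.

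A second pair followed each other in the file. Zm00001d036069 (chromosome 6, 70204956 to 70207363) reached 3.94 RPKM in -N, 11.2 in +NO3- and 1.47 in +NO3- + cPTIO, and Zm00001d036072 (70419011 to 70421326), 212 kb away, had 5.69, 12.7 and 1.77. Both are among the 835 nitrate-responsive genes. Across the set, the genes next to a selected gene were 167, of which 94 passed the -N minimum. Of the 94, 6 were above 2-fold in +NO3- (6.38%, where the share over all genes is 3.36%). Below 0.5 times -N with cPTIO were 8 (8.51%, where the share over all genes is 10.5%). Members were 2, the pair on chromosome 6, and the rule itself places this pair inside both counts. Because the members are few, distances between them are not set against those within larger groups.

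For some genes the reads may not belong to the gene alone. Zm00001d001074 shares its locus with Zm00001d001076, which had an RPKM of 383 in -N, 570 in +NO3- and 215 in +NO3- + cPTIO, and with Zm00001d001075 at 1.54, 1.76 and 0.916. Zm00001d009024 shares one with Zm00001d009023, which had 53.4, 63.5 and 45.1. In both cases the overlapping gene was expressed over 10 times higher than the selected one. Zm00001d013592 shares a locus with Zm00001d013593 (6.19, 8.32 and 1.21), Zm00001d000786 with Zm00001d002900 (0.486, 1.07 and 0.208) and Zm00001d027048 with Zm00001d027047 (0.312, 0.893 and 0). Equal spans also occurred on the same chromosome. Zm00001d027291 and Zm00001d028043 both span 435 bases on chromosome 1, and the second had 0.981, 2.65 and 0.0798. Zm00001d002500 and Zm00001d002521 both span 261 bases on chromosome 2, 557 kb apart, and the second had 5.34, 13.1 and 1.85. Their sequences were not compared, so reads shared between near-identical copies cannot be judged.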

How the data were processed

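RNA-seq reads of maize B73 root apices (9 libraries, 3 conditions) were processed by the authors, whose notes name CASAVA 1.8, Trimmomatic 0.33, TopHat2 2.0.13 and Cufflinks 2.2.1, with the AGPv4 assembly and the Ensembl Plants 38 annotation. Cuffdiff ran with quartile normalization and multi-read correction. The deposited values are RPKM, 1 per gene and condition over the libraries kept, so the depth and spread of single libraries are not in them. At equal RPKM, short genes rest on fewer reads than long ones. Columns of other samples numbered 0.

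Ratios were computed without a pseudocount with Python 3.11.15, pandas 2.3.3 and numpy 2.4.6, and figures with matplotlib 3.10.9. Starts in the file were taken to count from 0 and were raised by 1. With this reading 57.0% of own loci under 500 bases were multiples of 3, against 15.8% with starts counted from 1. Loci shared by overlapping genes (4764 genes) were left out of span values. The rule was tested on simulated data. The RefSeq table named 0 of the 86 genes, so identifiers stand without names or sequences, and the tissue was not checked against root markers. KEGG names come from the study's supplement.

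Genes named are the 10 highest in +NO3-, the 5 lowest ratios of +NO3- + cPTIO to +NO3- among genes reaching 5 RPKM in +NO3-, those listed at 0, annotated genes, genes within 100 kb of each other, and 3 genes on either side of each limit, with their neighbours. Others, such as those that remained after centring by span, equal spans and shared loci, were chosen after their values were seen. The members and lists were chosen with earlier results of these data known. Alternatives were other minimums, pseudocounts, fold limits, scalings, identifiers and distances, and, added after seeing the data, ratios centred by locus span. Counts that changed over 1.5 times, and log2 ratios that shifted by more than the log2 of 1.5, are given as moved.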

Additional observations from a re-analysis of the deposited data

How the results depend on the processing

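How many genes met the rule depended on its limits. With a -N minimum of 0.1 there were 246, of 1 there were 57, of 5 there were 13, and with no minimum 578. Limits of 1.5-fold gave 513 and of 3-fold 8, fewer or more by construction. A pseudocount of 1 left 19, and it moved the median log2 ratio of +NO3- + cPTIO to +NO3- from -2.91 to -1.72 and the log2 ratios of Zm00001d027291 to -4.48, Zm00001d048307 to -3.73 and Zm00001d022624 to -3.16, as it weighs most on low values. Ratios centred by locus span, chosen after seeing the data, left 26 of the 81 genes with an own locus and a median of -2.24. Centring the nitrate ratio alone left 38 and the cPTIO ratio alone 56. The cause of the dependence on span was not tested. Near another selected gene were 0 genes at 20 kb and 7 at 500 kb. The other 17 summary values and 77 single-gene values moved by no more than the limits. Among them were counts of 69 with a pseudocount of 0.1, 76 and 79 after rescaling, and 100 over all identifiers. The rule and the small size of these shifts fixed the direction of the ratios, so that 0 were reversed is no support. No paired analysis was possible because each condition has a single pooled column, and leaving out a library could not be run for the same reason. Promoter motifs were not run, as no promoter was matched. Depth limits the genes with few reads most.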
